A study of Caenorhabditis elegans with 2 samples.

Results

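ceh-22, tbx-2, peb-1, hlh-6, ceh-34 and eya-1 are 6 genes for regulators of pharynx development, and the binding of PHA-4 around them was described from peak lists. They were chosen by name, and all 6 were found among the 19985 protein-coding genes of the annotation. A peak was assigned to a gene when its summit lay in the gene body or in the 2000 bp upstream of it, an interval called the window of the gene below. The lists measure binding and no expression, so whether these genes depend on PHA-4 was not measured.

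PHA-4 is a forkhead factor of the FoxA type. It specifies pharyngeal cells, which form the tube the worm feeds with, and acts at pharyngeal genes through a short recognition sequence in their regulatory DNA. Beneath it stand further regulators of pharynx development. CEH-22, a homeodomain protein of the NK-2 class, and TBX-2, a T-box factor, act in pharyngeal muscle. PEB-1 is a DNA-binding protein that, with CEH-22 and PHA-4, binds the enhancer of the pharyngeal myosin gene myo-2. HLH-6, a basic helix-loop-helix factor, acts in the pharyngeal glands. CEH-34, a homeodomain protein of the sine oculis class, acts in the pharyngeal nervous system, and EYA-1 belongs to the Eyes absent proteins, which are partners of sine oculis factors.

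The data are chromatin immunoprecipitation followed by sequencing (ChIP-seq) in 2 biological replicates of 1 group, whole late embryos of pooled sex. The strain is OP37, with the unc-119(ed3) mutation and the transgene insertion wgIs37, which targets pha-4 and tags it with eGFP. The samples are described as immunoprecipitated against eGFP-tagged PHA-4 while the antibody label reads pha-4, so whether the peaks are of the tagged protein alone or of all PHA-4 is not settled by the labels. The age is given as unknown, and the labels do not state the copy number of the transgene. Whole embryos were used, so a peak averages over all cells, and the number of cells bound and the binding per cell cannot be told apart. There is no second group, and nothing below is a comparison of conditions.

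The lists, in genome build ce11, hold 5607 peaks for replicate 1, 1729 for replicate 2 and 7768 for both libraries pooled. They are relaxed lists in which peaks stand together with background. Each peak carries the authors' signal value, whose scaling between lists is not stated, so signals and ranks (1 is the strongest) describe a peak within its own list. A q of 0.05 or less, as deposited, was given to 5248 peaks of replicate 1, 1330 of the pooled list and 0 of replicate 2, and the smallest q in replicate 2 was 0.351. No read counts are given, so depth is unknown. The pooled list is made from both libraries and is not a further replicate. None of the authors' 9 final peaks had its summit in a window of the 6 genes, a count of 0.

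In replicate 1, 4 of the 6 genes had a summit in the window: ceh-22, tbx-2, peb-1 and hlh-6. The share over all protein-coding genes was 23.8%. In replicate 2, 3 of the 6 had one, ceh-22, tbx-2 and peb-1, where the share over all genes was 8.56%. The pooled list marked 5 of the 6, all but ceh-34, against 30.7% of all genes. Both replicates marked the same 3 genes, ceh-22, tbx-2 and peb-1, against 2.9% of all genes. None of the 9 replicate 1 peaks overlapped a replicate 2 peak (0 of 9), and over the whole replicate 1 list 1.62% did (91 of 5607 peaks). The members' windows held 9 summits in replicate 1, 4 in replicate 2 and 12 in the pooled list.

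Long windows collect more summits, and the members' windows, from 3366 bp at hlh-6 to 12668 bp at eya-1, compare with a median of 4026 bp over all protein-coding genes. Among genes with windows of 5000 to 8000 bp, as at ceh-22, ceh-34 and tbx-2, 30.6% had a replicate 1 summit and 10.8% a replicate 2 summit. Among those with windows over 8000 bp, as at peb-1 and eya-1, the shares were 47.9% and 18.1%. Below 5000 bp, as at hlh-6, they were 17.5% and 6.20%. The pooled shares were 38.1% for 5000 to 8000 bp, 59.4% over 8000 bp and 23.4% below 5000 bp. The members were chosen with earlier results of these data known, so their counts were set beside these shares and not tested.

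**Figure D1:**
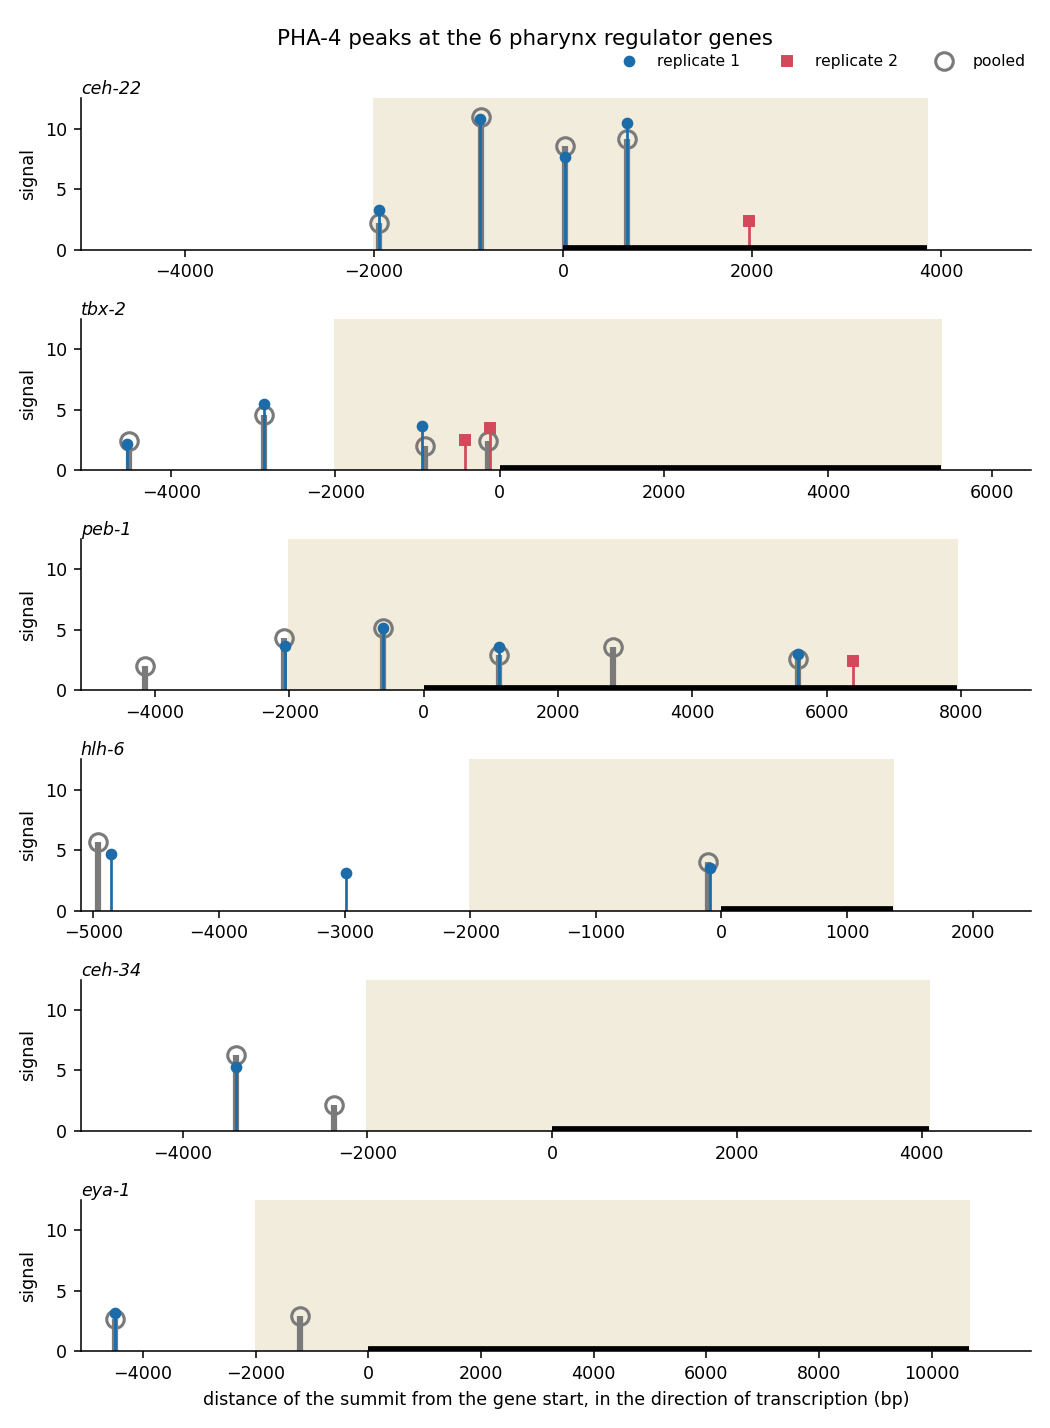
Signal (vertical axis, the authors' units) of every peak from 5000 bp upstream of each gene to 1000 bp past its end. The horizontal axis is the distance of the summit from the gene start (bp). The lists share the vertical axis, but their scaling between lists is not stated, so heights compare only within a list. Blue points are replicate 1, red squares replicate 2 and open grey circles the pooled list, black bars are gene bodies and shading marks the windows. ceh-22 carries 3 replicate 1 summits with signals from 7.70 to 10.8, and ceh-34 and eya-1 have no replicate 1 or replicate 2 summit in the shaded windows.

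ceh-22 (WBGene00000445, V:10671918-10675769, plus strand) had the strongest and most numerous peaks of the 6 genes in replicate 1. Its 4 summits lay at −1950, −882, +18 and +676 bp from the gene start. The summit at −882 bp (V:10670864-10671207) had a signal of 10.8 and rank 139, and it lay between ceh-22 and the upstream potassium channel gene twk-12. The summit at +676 bp (V:10672422-10672765) had a signal of 10.4 and rank 162. This position is in an untranslated exon, 40 bp before another transcript start of the gene, and also inside the antisense non-coding gene F29F11.19. The summit at +18 bp (V:10671764-10672107) had a signal of 7.70 and rank 409. These 3 stood within the strongest 1000 of the list and the summit at −1950 bp did not. That one (V:10669796-10670139) had a signal of 3.26 and rank 2386, lay in a coding exon of twk-12 and was the summit nearest inside the window edge.

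Of all protein-coding genes, 134 (0.671%) had a replicate 1 peak of rank 139 or better in the window. A window with 4 or more replicate 1 summits was found at 0.54% of protein-coding genes, over windows of all lengths. ceh-22 was the 1 member with so many. The pooled list held the same 4 positions, with summits 0 to 11 bp from those of replicate 1. There the signals were 10.99 at −871 bp (rank 150), 8.60 at +18 bp (rank 336), 9.19 at +676 bp (rank 274) and 2.23 at −1950 bp (rank 6394). The first 3 had pooled q-values of 0.0167, 0.0104 and 0.0128, and the last had 0.771. Replicate 2 had 1 summit in the window, at +1970 bp (V:10673593-10674182), with a signal of 2.41, rank 754 and q of 0.566. It lay in a coding exon, 17 bp past an internal transcript start and 1294 bp from the nearest replicate 1 summit, and the pooled list had no peak that overlapped it.

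Within 100 bp of the summit, the strongest ceh-22 peak has no PHA-4 consensus. The weak distal peak and the peak at +18 bp have 3 each, of which the stretch printed for the latter holds 1. The sequences below show ceh-22 at its strongest peak, at the weak distal peak and just before the gene start. They run 5′ to 3′ on the strand of the gene, from the RefSeq ce11 (WBcel235) reference, with 75 bp to each side of the summit or, for the peak at +18 bp, the 57 bp that end at the gene start. Capitals mark whole matches to the PHA-4 consensus on either strand, which reads a T, a purine, a pair of Ts, G or T, a purine and a pyrimidine. Matches that overlap run together.
ceh-22, replicate 1 summit at −882 bp, V:10670961-10671111, plus strand: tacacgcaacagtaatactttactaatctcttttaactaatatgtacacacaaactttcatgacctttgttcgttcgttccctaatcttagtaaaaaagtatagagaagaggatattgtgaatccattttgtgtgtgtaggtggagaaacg
ceh-22, replicate 1 summit at −1950 bp, V:10669893-10670043, plus strand: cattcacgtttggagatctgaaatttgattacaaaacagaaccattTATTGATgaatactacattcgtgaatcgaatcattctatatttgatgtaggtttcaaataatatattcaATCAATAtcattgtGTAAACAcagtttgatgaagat
ceh-22, replicate 1 summit at 18 bp, V:10671861-10671917, plus strand: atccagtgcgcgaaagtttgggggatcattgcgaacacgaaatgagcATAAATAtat

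tbx-2 (WBGene00006543, III:5130923-5136296, minus strand) had all of its window summits upstream of the gene, and the replicates placed them apart. In replicate 1 the window held 1 summit, at −950 bp (III:5137074-5137417), with a signal of 3.61, rank 1972 and q of 0.00430. Replicate 2 held 2, at −116 bp (III:5136117-5136706) with a signal of 3.50, rank 81 and q of 0.379, and at −424 bp (III:5136425-5137014) with a signal of 2.51, rank 641 and q of 0.527. These replicate 2 peaks overlap each other. The closest summits of the replicates were 526 bp apart. Rank 81 places the peak at −116 bp in the top 4.68% of the replicate 2 list, the highest standing of any member there, and 92 protein-coding genes (0.460%) had a replicate 2 peak as strong.

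In the pooled list both positions at tbx-2 were weak. The summit at −138 bp, 22 bp from the stronger replicate 2 summit, had a signal of 2.38 and rank 5594, and the one at −908 bp, 42 bp from the replicate 1 summit, had 2.03 and rank 7610. Their pooled q-values were 0.672 and 0.918. A stronger replicate 1 peak lay outside the window, at −2874 bp in an intron of the neighbouring gene Y54H5A.2. It had a signal of 5.48 and rank 923, and in the pooled list 4.57 and rank 1457. The nearest annotated transcript start to it was that of tbx-2.

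The sequences of 3 tbx-2 peaks show the difference between its peaks in consensus content, on the minus strand of chromosome III. The replicate 1 summit has a single site, the weaker replicate 2 summit has 3 close together, and the stronger replicate 2 summit has none within 100 bp. The first and the last also have a match to the T-box core described further on, which for the first lies outside the stretch printed.
tbx-2, replicate 1 summit at −950 bp, III:5137171-5137321, minus strand: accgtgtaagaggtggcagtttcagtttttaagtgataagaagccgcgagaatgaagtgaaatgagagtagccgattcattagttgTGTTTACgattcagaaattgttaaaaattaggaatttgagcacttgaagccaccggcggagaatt
tbx-2, replicate 2 summit at −424 bp, III:5136645-5136795, minus strand: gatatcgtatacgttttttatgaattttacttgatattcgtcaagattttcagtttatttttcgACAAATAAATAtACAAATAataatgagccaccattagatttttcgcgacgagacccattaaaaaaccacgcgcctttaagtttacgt
tbx-2, replicate 2 summit at −116 bp, III:5136337-5136487, minus strand: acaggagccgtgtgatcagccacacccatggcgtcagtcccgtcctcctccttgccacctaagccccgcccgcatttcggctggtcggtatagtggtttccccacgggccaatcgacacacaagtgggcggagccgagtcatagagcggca

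peb-1 (WBGene00003968, X:2211051-2218988, plus strand) had 3 replicate 1 summits, a number reached by 1.42% of protein-coding genes. That share is over windows of all lengths, and the peb-1 window, of 9938 bp, is a long one. The strongest, at −604 bp (X:2210275-2210618), had a signal of 5.15 and rank 1060 and lay inside the antisense non-coding gene T14F9.17. The summits at +1128 bp (X:2212007-2212350) and +5570 bp (X:2216449-2216792) lay in introns, with signals of 3.55 and 2.99 and ranks 2031 and 2820. All 3 recurred in the pooled list at the same bases, with signals of 5.15, 2.90 and 2.58 and ranks 1134, 3808 and 4831. Only the first of them had a pooled q of 0.05 or less, 0.0340. The pooled list added an intron summit at +2812 bp, inside the antisense non-coding gene T14F9.10, with a signal of 3.57 and rank 2489. Replicate 2 had 1 summit, at +6394 bp (X:2217150-2217739), in a coding exon, with a signal of 2.41, rank 766 and q of 0.556. It lay 824 bp from the nearest replicate 1 summit. A further replicate 1 summit fell 57 bp short of the window, at −2057 bp, with a signal of 3.67 and rank 1920.

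The peb-1 upstream peaks inside and just outside the window each have 2 consensus sites and are shown for that reason.
peb-1, replicate 1 summit at −604 bp, X:2210372-2210522, plus strand: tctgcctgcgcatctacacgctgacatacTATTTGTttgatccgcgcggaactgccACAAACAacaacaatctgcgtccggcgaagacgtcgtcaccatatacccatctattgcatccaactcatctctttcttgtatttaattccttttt
peb-1, replicate 1 summit at −2057 bp, X:2208919-2209069, plus strand: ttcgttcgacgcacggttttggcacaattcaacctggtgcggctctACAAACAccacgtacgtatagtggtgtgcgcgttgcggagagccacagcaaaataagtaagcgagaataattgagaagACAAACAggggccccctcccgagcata

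hlh-6 (WBGene00001952, II:9613463-9614828, minus strand) had a single replicate 1 summit, close to its start. It lay at −94 bp (II:9614750-9615093), between hlh-6 and the upstream gene hal-3, with a signal of 3.53, rank 2113 and q of 0.00402. The pooled list placed it at −109 bp with a signal of 4.03, rank 1895 and q of 0.113. Replicate 2 had none in the window, and its nearest summit lay at +4177 bp, beyond the end of the gene, with a signal of 2.18 and rank 1151. The replicate 1 summit at −94 bp was of middling rank but the densest of the members in consensus sites. It had 4 within 50 bp, at −41, −37, +8 and +23 bp from the summit. Of all 5607 replicate 1 summits, 1.94% had 4 or more within 100 bp. The 4 differ from each other in sequence and are capitalised below, where the first pair overlaps.
hlh-6, replicate 1 summit at −94 bp, II:9614847-9614997, minus strand: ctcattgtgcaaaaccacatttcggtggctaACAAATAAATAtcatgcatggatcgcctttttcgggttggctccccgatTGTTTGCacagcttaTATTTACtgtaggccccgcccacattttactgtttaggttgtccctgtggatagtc

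ceh-34 (WBGene00000455, V:5315496-5319577, minus strand) was the member with no summit in its window in any list. The nearest replicate 1 peak lay at −3425 bp (V:5322830-5323173), with a signal of 5.32 and rank 984, and in the pooled list it had 6.30, rank 726 and q of 0.0159. Its summit lay 192 bp past the end of ceh-33, the neighbouring sine oculis class gene on the same strand, in the interval between ceh-33 and ceh-34. It had no PHA-4 consensus within 100 bp. The window of ceh-33 itself held no summit in any list. The pooled list had a further summit at −2359 bp, with a signal of 2.13 and rank 7150.
ceh-34, replicate 1 summit at −3425 bp, V:5322927-5323077, minus strand: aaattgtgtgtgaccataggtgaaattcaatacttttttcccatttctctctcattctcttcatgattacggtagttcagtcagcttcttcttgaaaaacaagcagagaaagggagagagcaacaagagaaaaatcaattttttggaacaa

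The remaining member, eya-1, also had no summit in its window in either replicate, although the window is the longest of the 6.

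eya-1 (WBGene00001377) is on the minus strand at I:14220693-14231360. The pooled list alone had a summit in its window, at −1214 bp (I:14232399-14232748), with a signal of 2.90, rank 3845 and q of 0.407. In replicate 1 the nearest summit lay at −4500 bp, with a signal of 3.16 and rank 2625, in a coding exon of the C-type lectin gene clec-114 and 88 bp past a start of that gene. With 5000 bp upstream in place of 2000, replicate 1 therefore marked all 6 genes, where 33.7% of all protein-coding genes had a summit. Replicate 2 still marked 3, against 13.1%.

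Set side by side, the ranks order the genes differently in the 2 libraries. In replicate 1 the best ranks were 139 at ceh-22, 1060 at peb-1, 1972 at tbx-2 and 2113 at hlh-6. In replicate 2 they were 81 at tbx-2, 754 at ceh-22 and 766 at peb-1. With 1 value per gene and library there is no spread within a library, so neighbours such as ceh-22 and peb-1 in replicate 2, with signals of 2.412 and 2.411, cannot be ordered. A replicate 1 summit among the strongest 1000 was found at 1 member, ceh-22 (5.12% of all genes), and a replicate 2 summit among its strongest 1000 at 3 (5.02% of all genes). The cut is far looser in replicate 2, with 1729 peaks, than in replicate 1, with 5607. A pooled summit with q of 0.05 or less was found at 2 members, ceh-22 and peb-1 (6.74% of all genes).

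**Figure D2:**
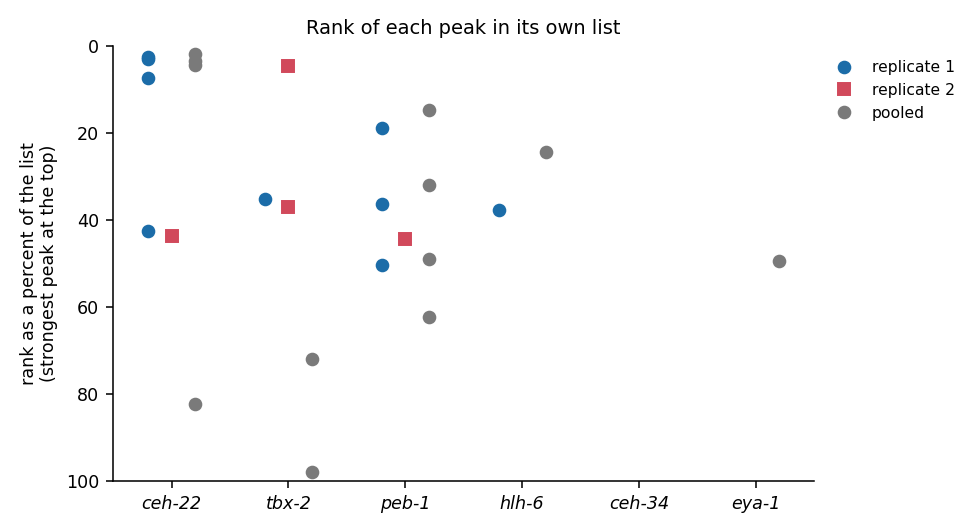
Rank of every summit in the 6 windows as a percent of its own list (vertical axis, 0 is the strongest peak), by gene (horizontal axis). Blue points are replicate 1, red squares replicate 2 and grey points the pooled list. The 3 strong ceh-22 peaks sit within the top 7.29% of replicate 1 and the top 4.33% of the pooled list, the tbx-2 peak of rank 81 is near the top of replicate 2 alone, and ceh-34 has no point.

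The summits were sorted by where they fell in the member's own annotation. Of the 9 replicate 1 summits, 5 lay upstream of the gene, 2 in untranslated exons, 2 in introns and 0 in coding exons of the member. Of the 4 in replicate 2, 2 lay upstream and 2 in coding exons. Counting coding exons of any gene, which adds the ceh-22 summit in twk-12, the members had 1 of 9 and 2 of 4, and the whole lists had 15.6% in replicate 1 and 32.6% in replicate 2. The lists as a whole thus differed in the same direction. The 6 windows together held 1.99 replicate 1 summits per 10 kb, against 0.596 over all protein-coding windows and 0.559 over the genome. At ceh-22 alone the figure was 6.84 per 10 kb, at peb-1 3.02, at hlh-6 2.97 and at tbx-2 1.36. In replicate 2 it was 0.883 per 10 kb over the members and 0.172 over the genome.

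**Figure D3:**
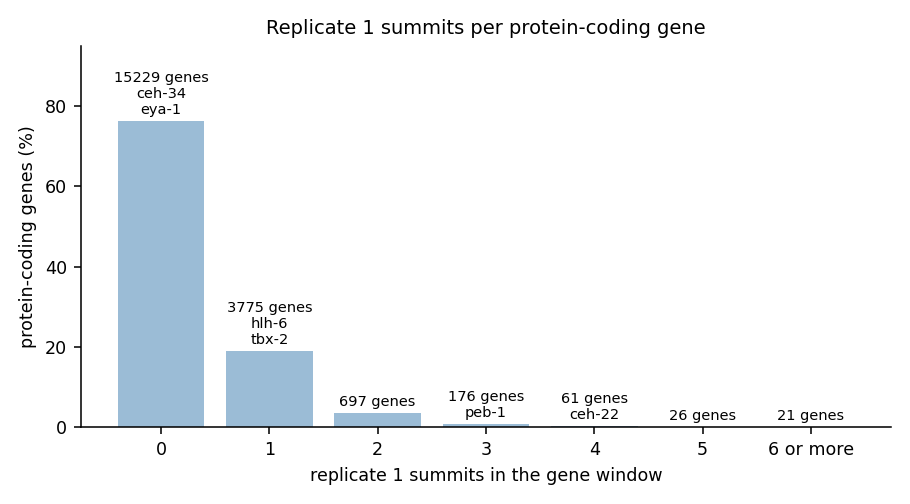
Share of the 19985 protein-coding genes (vertical axis, percent) by the number of replicate 1 summits in the gene window (horizontal axis). Labels give the number of genes and name the members: ceh-34 and eya-1 stand with the 15229 genes without a summit, hlh-6 and tbx-2 with 3775 that have 1, peb-1 with 176 that have 3 and ceh-22 with 61 that have 4.

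The PHA-4 consensus lay within 100 bp of 7 of the 9 replicate 1 summits. Over the whole replicate 1 list 57.5% of summits had it, and windows of the same 201 bp centred 500 bp to each side had it in 47.1%. It was found in 54.1% of the 201 bp upstream of all protein-coding genes. The members' own flanks had it in 12 of 18 windows (66.7%), so the DNA around these peaks was also rich in it. The summits without a site within 100 bp were the 2 of highest rank, those of ceh-22 at −882 and +676 bp. With a stretch wider than 100 bp to each side, 9 of 9 member summits had a site, against 78.6% of the replicate 1 list. Over that list strong peaks had a site within 100 bp more often, 65.1% of the strongest 1000 summits against 57.5% of all. The 2 summits of ceh-22 are among the strongest 1000 summits that had none within 100 bp. In replicate 2, 2 of the 4 summits had a site, at tbx-2 and peb-1, where the list as a whole had 46.3%. Windows 500 bp to each side of the summits of that list had it in 46.5%. Over the replicate 2 list, summits thus had a site no more often than their flanks. The most frequent 7-base form at the replicate 1 summits was TATTTAT, found 3 times. A further 5 forms occurred 2 times each and 3 forms 1 time each. A match is a run of letters and not a measured site.

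**Figure D4:**
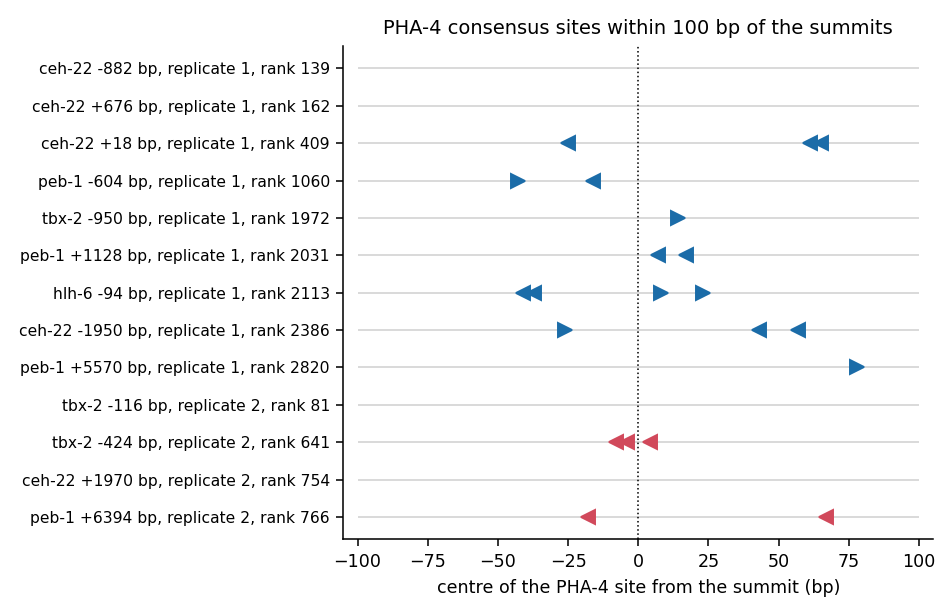
Centre of each PHA-4 consensus match from the peak summit (horizontal axis, bp, in the direction of the gene) at the 9 replicate 1 summits (blue) and 4 replicate 2 summits (red) in the windows, ordered by rank within each list. Triangles point right for a match on the strand of the gene and left for one on the opposite strand. The 4 matches at hlh-6 lie from −41 to +23 bp, and the strongest ceh-22 summits have none within 100 bp.

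Motifs of the members' own protein classes were sought in the same 201 bp windows. TNAAGTG, the NK-2 class site known from flies and vertebrates, was found on either strand at 4 of the 9 replicate 1 summits, against 10.3% of the whole list and 9.78% of the sequences upstream of protein-coding genes. The tbx-2 summit at −950 bp had 3 such matches, and ceh-22 at +18 bp and peb-1 at +1128 and +5570 bp had 1 each. The members' flanks had it in 4 of 18 windows. In replicate 2 it was found at 0 of the 4 member summits, against 11.5% of that list. TCACAC, the core of the vertebrate T-box half-site, was found at 2 summits, tbx-2 at −950 bp and peb-1 at −604 bp, against 10.9% of the list and 8.67% upstream of protein-coding genes. In replicate 2, 1 of 4 summits had it, tbx-2 at −116 bp, against 8.44% of that list. None of the replicate 1 matches shared a base with a PHA-4 match (0 of 6 and 0 of 2). With 9 summits from 4 genes these counts are a description.

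Other genes of the pharynx network were set beside the members in 3 lists. Of 20 further regulators with roles in the pharynx or its precursors, 6 had a replicate 1 summit, 3 a replicate 2 summit, 8 a pooled summit and 3 both replicates. The shares over all protein-coding genes, 23.8%, 8.56%, 30.7% and 2.9%, apply to each list, and the replicate 1 and pooled counts lie near theirs. The 3 genes with both were pha-4, pha-2 and lag-1. pha-4 itself held 11 replicate 1 summits, with a best rank of 8, and 1 replicate 2 summit of rank 6. The transgene targets pha-4 and its copy number is not stated. Signal from the transgene and from the pha-4 locus therefore cannot be told apart in these peaks. lag-1, the transcription factor of the Notch pathway, held 4 replicate 1 summits with a best signal of 10.7 and rank 149, close to the values of ceh-22, and a replicate 2 summit of rank 664, in a window of 17249 bp. pha-2, a homeobox regulator of pharynx shape, had best ranks of 1781 and 1634. ceh-2, a homeobox gene of the empty spiracles class, had 2 replicate 1 summits with a best rank of 645 and none in replicate 2. skn-1 and ceh-45 had replicate 1 summits with best ranks of 1613 and 3267, and the remaining 14 genes, among them pha-1, glp-1 and zag-1, had no replicate 1 summit.

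Of 7 genes whose products work with or above the members, 6 had a replicate 1 summit, 0 a replicate 2 summit and 6 a pooled summit. The all-gene shares were 23.8%, 8.56% and 30.7%, so a count of 0 of 7 in replicate 2 lies near its share. The strongest was at sys-1, a beta-catenin, with a signal of 7.66 and rank 415 in replicate 1 and 12.3 and rank 92 in the pooled list. The others were pop-1, the TCF factor that pairs with SYS-1, the sumoylation genes ubc-9 and gei-17, the Groucho corepressor gene unc-37 and the E protein gene hlh-2, with best ranks from 1447 to 4026. The SUMO gene smo-1 had none.

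Of 15 pharyngeal genes that act below such regulators, 6 had a replicate 1 summit, 0 a replicate 2 summit and 7 a pooled summit. Against the same shares, the replicate 2 count of 0 of 15 lies near that of all genes. nas-12, an astacin protease gene, had the highest rank, 954, with a signal of 5.43. myo-2, named here after its values were seen because CEH-22, PEB-1 and PHA-4 are known to bind its enhancer, had 1 replicate 1 summit with a signal of 3.47 and rank 2152, close to tbx-2 and hlh-6. In the pooled list its rank was 7169. The 6 phat genes of the list, which are named for the pharyngeal glands, had none in any list.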

How the data were processed

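ChIP-seq peak lists of 2 biological replicates, 1 group, were used. Per the labels' file listing, the lists were made from each replicate's alignment, or both, with 2 control files, and for aligner, caller and versions the sources name none. The deposited signal of each peak was used as it stands. Its −log10 q-value, as the authors deposited it, is written here as q. The summit is column 2 plus column 10 of the deposited lists. Coordinates are ce11, 1-based, and were read against the RefSeq WBcel235 sequence and Ensembl release 115. Lists in ce10 were not used here, since no annotation of that build was used.

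Peaks were ranked by signal within a list. All 19985 protein-coding genes were given the same window, and the share with a summit was set beside the members. Motifs were searched on both strands in Python 3.11.15 with pandas 2.3.3 and numpy 2.4.6, and window assignment and motif search were tested on simulated data. One group of 2 libraries allows no test between groups, so no p-value was computed. The members and lists were chosen with earlier results of these data known. Genes outside the 6 were named when they had a strongest-1000 replicate 1 peak or peaks in both replicates, together with genes at or next to a member peak and the 3 most alike in rank, and the other named genes of the lists were chosen after their values were seen. Alternatives were the window, peak set, overlap rule, q threshold, motif form and single replicates.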

Additional observations from a re-analysis of the deposited data

How the results depend on the processing

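Of 51 alternative values for the counts above, 40 stayed within 1.5 times the reported count and 11 did not. Some of the 40 could not have moved, since a count of 0 overlaps cannot rise with fewer peaks or narrower windows. The single-replicate alternatives set a count in both replicates beside a count in 1 list, which is another quantity. The tally is therefore no measure of stability. With the strongest 1000 peaks of each list, members with a peak fell to 1 in replicate 1, against 5.12% of all genes. They fell to 1 in the pooled list and 1 in both replicates, where the share over all genes was not computed. Member summits fell to 3 in replicate 1 and 3 in the pooled list. With q of 0.05 or less, 2 members kept a pooled peak, against 6.74% of all genes. None kept a replicate 2 peak (0), and no peak of that list passed. With 5000 bp upstream, the summits numbered 16 in replicate 1 and 20 in the pooled list. The pooled list then marked 6 of 6 members, against 42.8% of all genes. Counting summits within 1000 bp of each other as shared gave 2 replicate 1 peaks with a replicate 2 partner, against 0 by overlap or within 100 bp; over all replicate 1 peaks the shares were 4.14%, 1.62% and 0.214%. With the PHA-4 consensus held to G at the second and T at the fifth base, 4 of 9 replicate 1 summits had it, against 26.1% of the list. By replicate 1 alone 4 members had a peak, and by replicate 2 alone 3. No paired analysis was possible because there is 1 group and no test. Read depth is unknown, so a gene without a peak is not shown to be unbound.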

Other observations

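Among the 579 protein-coding genes with a summit in both replicates, those closest to each shared member in the best rank, as a percent of each list averaged over the 2 libraries, were as follows. For ceh-22 they were T22F7.3, with ranks of 150 and 809, and T05A12.3 and T05A12.4, which have the same ranks, 190 and 806. For tbx-2 they were W04G3.5 (2057 and 95) and, with equal ranks, R05D3.8 and rfp-1 (2057 and 103). For peb-1 they were aka-1 and ubc-6 (1110 and 772 for both) and csnk-1 (992 and 750). The mean difference in percent of the list ran from 0.619 to 1.96.

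The 201 bp around the members' replicate 1 summits had a median GC content of 43.3%, from 31.8% at ceh-22 (−1950 bp) to 54.7% at ceh-22 (+676 bp), and the median over all replicate 1 summits was 39.8%. The replicate 2 summit of tbx-2 at −116 bp had 61.2%. Beyond the windows, the strongest replicate 1 peak upstream of hlh-6 lay at −4860 bp, in an intron of the chaperone gene dnj-20, with a signal of 4.67 and rank 1264.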
